A study of Homo sapiens with 8 samples.

Results

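The nuclear genes of the mitochondrial respiratory chain were followed through a dexamethasone time course in human leukaemia cells. Members were the genes whose probe sets carry 1 gene symbol that begins as the symbols of complex I (NDUFA, NDUFB, NDUFC, NDUFS or NDUFV with a digit), complex II (SDHA to SDHD), complex III and its assembly factors (UQCR, UQCC), complex IV (COX4 to COX8) or ATP synthase (ATP5). For each gene the probe set with the highest mean over the 8 arrays was taken, which gave 87 genes of 19775. The rule used names and mean brightness over all arrays, not the response to the hormone. Complex I had 32 members, complex II had 3, complex III had 6 with 6 assembly factors, complex IV had 16 with the supercomplex factor COX7A2L, and ATP synthase (complex V) had 17 with its inhibitor ATP5IF1. The pattern also took in 5 transcripts that code for no subunit, namely the pseudogenes ATP5MC2P1 and COX6A1P1 and the antisense or divergent transcripts NDUFB2-AS1, NDUFV2-AS1 and NDUFV1-DT. SDHB, UQCRFS1, UQCRH, NDUFA4 and NDUFA4L2 had no probe set with a single symbol and were not analysed here.

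The cells were CCRF-CEM-C7-14, a clone of the CCRF-CEM line of T-cell acute lymphoblastic leukaemia. Before the hormone was added, the medium was changed to RPMI-1640 with charcoal-stripped serum, which has few steroids. Total RNA was hybridised to single-colour Affymetrix arrays from 3 groups: untreated cells at 0 h (3 arrays), cells after 2 h in 1 µM dexamethasone (3 arrays) and cells after 10 h in 1 µM dexamethasone (2 arrays). The labels call the arrays of a group biological replicates of 1 line without saying how the cultures were separated, and no array of cells kept in vehicle for 2 h or 10 h was used here, so dexamethasone and time in the changed medium cannot be told apart.

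The respiratory chain takes electrons from NADH at complex I and from succinate at complex II, passes them through ubiquinone to complex III and through cytochrome c to complex IV, and ends with the reduction of oxygen. Complexes I, III and IV pump protons as the electrons pass, and ATP synthase uses the proton gradient to make ATP. Most subunits are coded in the nucleus and imported, and the factors NRF1, GABP and YY1 are known to act at many of their promoters. Dexamethasone is a synthetic glucocorticoid that kills sensitive lymphoid leukaemia cells through the glucocorticoid receptor, and mitochondria take part in that death.

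No respiratory chain gene passed the test at 2 h or 10 h. With limma, moderated tests over all 19775 genes and Benjamini-Hochberg adjustment, 0 of 87 members had an adjusted p below 0.05 in 2 h against 0 h (0.0202% of all genes did), 0 of 87 in 10 h against 0 h (0.354% of all genes did) and 0 of 87 in 10 h against 2 h (0.167% of all genes did). The joint test for a difference at any time called 0 of 87, against 0.283% of all genes. At an unadjusted p below 0.05 the members numbered 0 in 2 h against 0 h (0.946% of all genes), 1 in 10 h against 0 h (3.44% of all genes) and 0 in 10 h against 2 h (3.15% of all genes). With so few calls among all genes, a count of 0 among 87 is close to the background and is no result about the members by itself. The bounds on their changes say more, and are given next. In bulk RNA, fewer cells with a transcript and less of it per cell cannot be told apart.

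On the probe set taken and with all arrays, each member's own 95% interval lay within 2-fold either way in each comparison. This is no joint bound over the members, and it does not cover their other probe sets. A dim COX5B probe set that was not taken had an interval down to -1.10 in 10 h against 0 h. Fitted log2 fold changes lay between -0.24 and 0.31 in 2 h against 0 h, between -0.32 and 0.46 in 10 h against 0 h and between -0.34 and 0.25 in 10 h against 2 h. The 95% intervals, which are not adjusted for the number of genes, reached at most from -0.65 to 0.73 in 2 h against 0 h, from -0.76 to 0.89 in 10 h against 0 h and from -0.81 to 0.70 in 10 h against 2 h. The whole interval stayed inside 1.5-fold either way for 78 members (89.7%) in 2 h against 0 h, where 73.2% of all genes did so. It did so for 63 members (72.4%) in 10 h against 0 h, where 50.7% of all genes did, and for 67 members (77%) in 10 h against 2 h, where 52.2% did. The smallest change that passed the adjusted test among all genes was 1.01 on the log2 scale in 10 h against 0 h, larger than any member's.

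**Figure D1:**
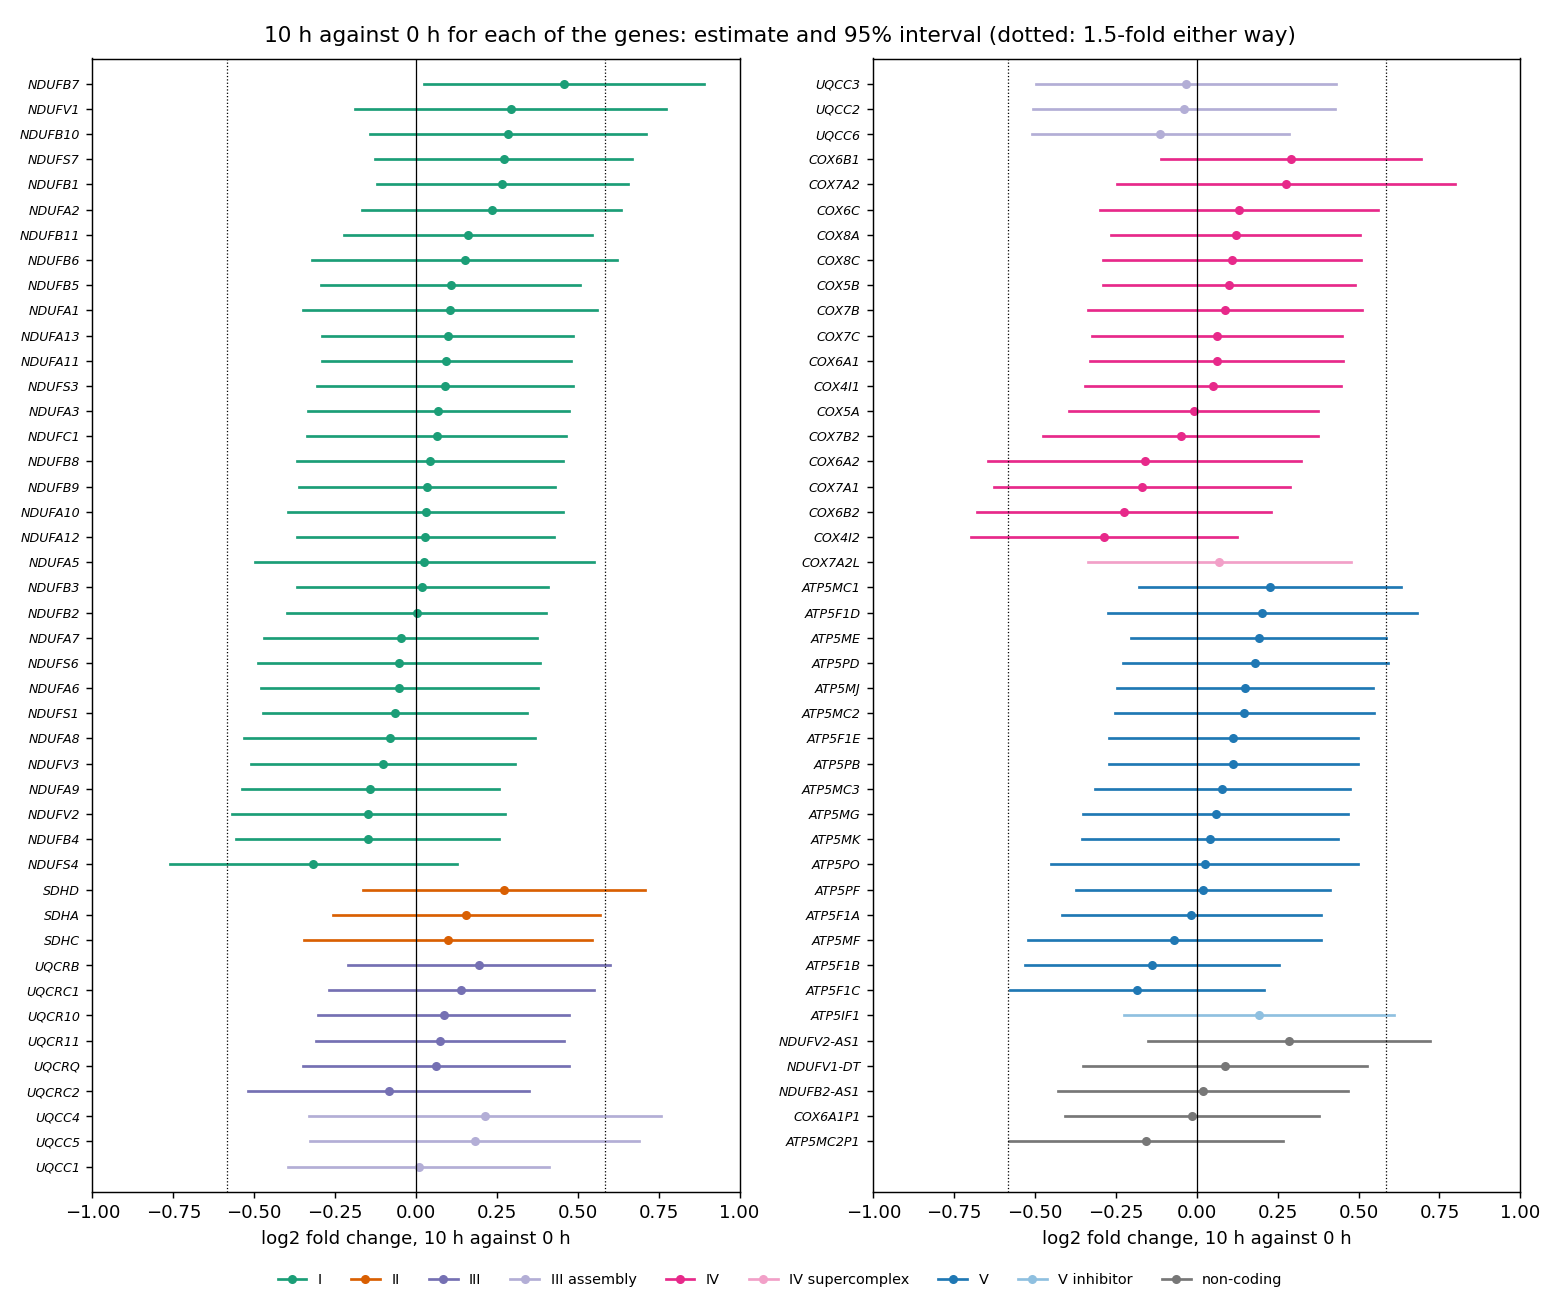
Log2 fold change in 10 h against 0 h (x axis) for each of the 87 genes, with points for the estimate and lines for limma's 95% interval, coloured by complex or class. The NDUFB7 interval lies wholly above 0, all the others span 0, and 63 intervals lie inside the dotted lines at 1.5-fold either way.

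The cells did answer the hormone on these arrays. TSC22D3, which codes for the glucocorticoid-induced leucine zipper GILZ, rose by 2.78 ± 0.19 on the log2 scale in 2 h against 0 h (limma fit, SE, adjusted p = 1.35e-06) and by 4.30 ± 0.22 in 10 h against 0 h (adjusted p = 7.22e-09). FKBP5, a receptor co-chaperone, rose by 2.16 ± 0.22 in 10 h against 0 h (adjusted p = 3.67e-05), and had 0.72 ± 0.19 in 2 h against 0 h (adjusted p = 1.00). Of all genes, 4 rose and 0 fell in 2 h against 0 h, and 66 rose and 4 fell in 10 h against 0 h. The T lineage markers measured, 12 of 13, all lay above the highest negative control, with CD3D at a mean log2 level of 13.0 and LCK at 12.4. The lowest T lineage marker, RAG1, was at 5.99. Of the markers of other lineages, MS4A1, LYZ, MPO, CSF1R, S100A8, KRT18 and KRT19 lay at or below the highest negative control. All the others measured lay above it, with CD79A at 8.78, EPCAM at 8.56, COL1A1 at 7.07 and CD79B at 6.28. KRT8 was at 5.37, COL1A2 at 5.18, CD14 at 5.17, PAX5 at 5.14 and ITGAM at 4.88. None of the markers of other lineages passed the test in any comparison. Array medians ran between 4.68 and 5.01 on the log2 scale. The 3 lowest belonged to replicate 2 at 0 h, replicate 3 at 2 h and replicate 1 at 10 h, 1 from each time.

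Most respiratory chain genes were bright on the probe set taken, which was the brightest of each gene by the rule. The 27 Bacillus probe sets, which have no target in human RNA, had single-array values from 1.52 to 4.73 on the log2 scale, and the mean of 81 of 87 members lay above the highest of them. The other 6 were the restricted cytochrome c oxidase forms COX7A1 (4.52), COX7B2 (3.92) and COX8C (2.21), the pseudogenes ATP5MC2P1 (4.59) and COX6A1P1 (4.38), and NDUFV2-AS1 (4.65). Of all 19775 genes, taken by the same brightness rule, 13068 lay above the highest negative control. Of the members' 83 other probe sets, 58 lay above it and 25 at or below it. Mean levels of 9 or more on the log2 scale, a limit chosen after the values were seen, were found for 67 members. The members also scattered little between arrays of 1 time. Their median residual SD was 0.14 on the log2 scale, against 0.23 for all genes, and among genes with a mean of 9 or more it was 0.12 for the 67 members, against 0.19 for 2663 other genes. Array-to-array values were tightest for UQCR11, with a residual SD of 0.025, and widest for UQCC4 at 0.37, NDUFA5 at 0.34, COX7A2 at 0.34 and UQCC5 at 0.32.

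The promoters of the members hold letters that the rule did not use. RefSeq promoter windows (GRCh38.p14, 250 bases before to 50 after the annotated start) were found for 70 of the 82 members that code for protein. No entry was matched for NDUFB5, NDUFB9, SDHC, UQCRB, UQCC3, COX6C, COX4I2, COX7A1, ATP5F1B, ATP5F1D, ATP5MC3 and ATP5MF. Both strands were searched. The NRF1 letters GCATGCGC stood in 13 windows (18.6%), against 3.27% of all 27305 windows and 4.26% of 15843 windows of protein-coding genes. The ETS letters CCGGAAG, which GABP binds, stood in 18 (25.7%), against 10.7% of all windows and 14.2% of those of protein-coding genes. The YY1 letters AAGATGGC stood in 11 (15.7%), against 3.03% and 3.91%. At least 1 of these 3 motifs was present in 33 of 70 windows (47.1%), against 15.6% and 20.3%. By complex that was 14 of 30 for complex I, 1 of 2 for complex II, 3 of 5 for complex III, 5 of 13 for complex IV and 9 of 13 for ATP synthase. Median GC content was 61.3% in the members' windows, against 62.7% in those of all protein-coding genes.

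The letters of the hormone receptor stood at about the share of other promoters. A glucocorticoid receptor half-site, AGAACA or its reverse complement TGTTCT, stood in 8 of 70 windows (11.4%), against 14.9% of all windows and 11.2% of those of protein-coding genes. A facing pair of these half-sites, AGAACA followed 3 bases later by TGTTCT, stood in 0 of 70 and in 1 of 27305. The E-box CACGTG, which MYC binds, stood in 9 of 70 (12.9%), against 7.43% and 8.88%. A match describes these letters in this window and shows no binding, and no match says nothing of sites elsewhere. The stretches below are the 120 bases just before the annotated start of 1 gene of each complex, chosen after the values were seen from genes whose arrays at 2 h or 10 h all lay above those at 0 h and whose stretch holds at least 1 of the 3 motifs. They are written 5′ to 3′ on the gene's strand, with motif matches in capitals. In SDHD overlapping NRF1 matches form 1 run.
NDUFB7 (complex I, chr19:14572067-14572186, minus strand, ETS): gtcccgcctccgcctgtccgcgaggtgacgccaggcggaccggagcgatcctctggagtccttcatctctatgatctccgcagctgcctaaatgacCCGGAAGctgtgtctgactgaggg
SDHD (complex II, chr11:112086753-112086872, plus strand, NRF1 and ETS): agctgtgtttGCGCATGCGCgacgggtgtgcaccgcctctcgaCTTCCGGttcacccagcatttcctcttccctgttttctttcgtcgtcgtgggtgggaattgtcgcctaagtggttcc
UQCR11 (complex III, chr19:1605463-1605582, minus strand, ETS on both strands): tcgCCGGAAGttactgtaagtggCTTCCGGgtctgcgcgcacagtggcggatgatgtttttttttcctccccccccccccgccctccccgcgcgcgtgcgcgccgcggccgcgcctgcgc
COX6B1 (complex IV, chr19:35648203-35648322, plus strand, ETS): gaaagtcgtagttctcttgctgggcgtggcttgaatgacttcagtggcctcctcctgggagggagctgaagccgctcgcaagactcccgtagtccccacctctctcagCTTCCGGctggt
ATP5PF (ATP synthase, chr21:25735055-25735174, minus strand, NRF1, YY1 and ETS): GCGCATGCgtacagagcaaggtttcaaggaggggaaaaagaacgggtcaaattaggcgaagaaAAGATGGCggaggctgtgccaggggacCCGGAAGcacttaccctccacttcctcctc

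The members' fold changes leaned to positive values, all of them small. In 2 h against 0 h, 65 of 87 members (74.7%) had a positive log2 fold change with a median of 0.052, where 55.7% of all genes were positive with a median of 0.020. At 10 h against 0 h, 61 of 87 (70.1%) were positive with a median of 0.065, where 44.6% of all genes were positive with a median of -0.023. In 10 h against 2 h, 48 of 87 (55.2%) were positive with a median of 0.016, where 42.5% of all genes were positive with a median of -0.032. The comparisons with 0 h share the same untreated arrays. Brightness went with the lean at 2 h, where 76.1% of the 67 members and 71.5% of the 2663 other genes with a mean of 9 or more were positive. In 10 h against 0 h the shares at that brightness were 80.6% of the members and 48.7% of the other genes, with medians of 0.086 and -0.006.

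The size of the lean moved with single arrays, and all genes moved with it. Replicate 2 at 10 h had a higher value than replicate 1 at 10 h in 66 of 87 members. Without 10 h replicate 2 the members' median in 10 h against 0 h was -0.0090 with 39 of 87 positive, where the median of all genes was -0.094 and 33.3% were positive. Without 10 h replicate 1 it was 0.13 with 70 positive, where all genes had 0.052. Without 0 h replicate 2 it was 0.014 with 48 positive, where all genes had -0.106. The members' median minus that of all genes was 0.088 in 10 h against 0 h with all arrays and ran from 0.057 to 0.12 over the alternatives. In 2 h against 0 h the same difference was 0.032 with all arrays, and it ran from -0.00023 without 2 h replicate 3 to 0.077 without 0 h replicate 2.

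The median deviation of the 87 members from their own means was -0.013, -0.099 and 0.017 in the 3 arrays at 0 h, 0.044, 0.038 and 0.007 at 2 h, and -0.041 and 0.099 at 10 h. The same quantity over all genes was 0.062, -0.164 and 0.095 at 0 h, 0.075, 0.092 and -0.130 at 2 h, and -0.091 and 0.053 at 10 h. The arrays lowest for the members at 0 h and at 10 h were thus also low over all genes. Other scalings kept a positive median in 10 h against 0 h. With array medians subtracted it was 0.088 with 64 of 87 positive, with quantile normalization 0.051 with 60 positive, and with a block for the 3 arrays of the lowest medians 0.081 with 63 positive. Among those 3 arrays alone the members' median was 0.050, where that of all genes was 0.062, and among the other 5 it was 0.075, where that of all genes was -0.027. In 2 h against 0 h quantile normalization left a members' median of 0.011 with 51 of 87 positive.

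**Figure D2:**
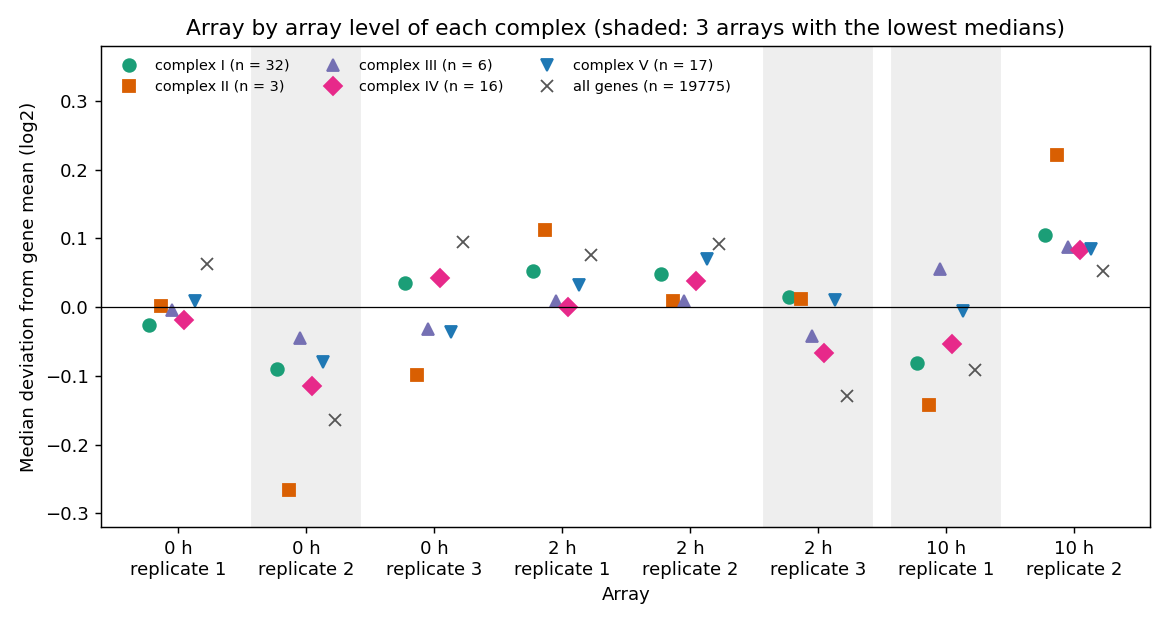
Median deviation from each gene's own mean over 8 arrays (y axis, log2) for complexes I to V and for all genes, in each array (x axis), with the 3 arrays of the lowest medians shaded. At 0 h replicate 2 and 10 h replicate 1 all genes lie at -0.164 and -0.091, and 10 h replicate 2 lies above 10 h replicate 1 for every complex.

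The arrays of a treated time often stood wholly above those at 0 h. The 10 h arrays both lay above all 0 h arrays in 20 of 87 members (23%), where 6.56% of all genes did so, and both lay below in 4 (4.6%), where 6.51% did. The 2 h arrays all lay above in 12 (13.8%), where 2.94% of all genes did so, and all below in 1 (1.15%), where 1.1% did. In 10 h against 2 h, 9 members (10.3%) lay wholly above, where 5.43% of all genes did so, and 5 (5.75%) wholly below, where 9.29% did. Among genes with a mean of 9 or more, 19 of the 67 members (28.4%) and 9.35% of the 2663 other genes lay wholly above in 10 h against 0 h. The differences between these shares were not tested. The 20 members wholly above in 10 h against 0 h were 9 genes of complex I (NDUFS7, NDUFA2, NDUFA3, NDUFA11, NDUFA13, NDUFB1, NDUFB7, NDUFB10 and NDUFB11), SDHD, UQCRB and UQCR11, COX6B1 and COX8A, 5 of ATP synthase (ATP5F1E, ATP5MC1, ATP5PB, ATP5ME and ATP5MJ) and NDUFV2-AS1. The 4 wholly below were NDUFA9, UQCC6, COX4I2 and ATP5F1C. Separation of so few arrays is not a call, and none of these genes passed the adjusted test. Separation also differed between probe sets of a gene. Among other probe sets above the highest negative control, 1 of NDUFA2 also lay wholly above in 10 h against 0 h. Those of NDUFA11, NDUFB1, NDUFB10, UQCRB, UQCR11, ATP5F1E, ATP5PB, ATP5ME and ATP5MJ overlapped. Outside the 20 members, another probe set each of COX4I1, SDHC and ATP5MG lay wholly above. Other ATP5F1C probe sets, at mean levels of 12.10 and 12.09, also lay wholly below, with log2 fold changes of -0.19 and -0.16. The dimmer ATP5F1C probe set, at 5.99, and the other UQCC6 probe set overlapped.

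The medians of all 5 complexes lay within 0.16 of 0 on the log2 scale in each comparison. In 2 h against 0 h the median log2 fold change was 0.059 for complex I (26 of 32 positive), 0.097 for complex II (3 of 3), 0.021 for complex III (3 of 6), 0.027 for complex IV (9 of 16) and 0.051 for ATP synthase (14 of 17). For 10 h against 0 h it was 0.039 for complex I (22 of 32 positive), 0.16 for complex II (3 of 3), 0.080 for complex III (5 of 6), 0.062 for complex IV (10 of 16) and 0.079 for ATP synthase (13 of 17). For 10 h against 2 h it was -0.018 for complex I, 0.039 for complex II, 0.059 for complex III, 0.016 for complex IV and 0.013 for ATP synthase. The median SE of a single member was 0.19 in 10 h against 0 h. No difference between complexes was tested. Without 10 h replicate 2 the median in 10 h against 0 h was -0.028 for complex I, -0.036 for complex II and -0.024 for complex IV.

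**Figure D3:**
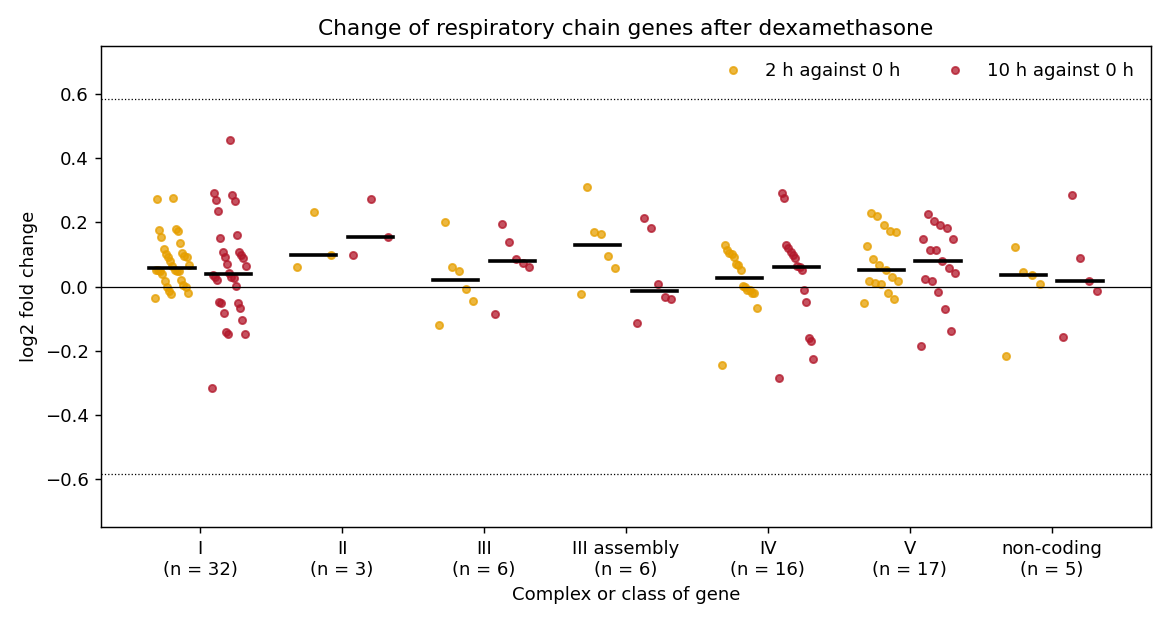
Log2 fold change (y axis) of each gene in 2 h against 0 h and in 10 h against 0 h, grouped by complex or class (x axis), with bars at the median. COX7A2L and ATP5IF1 are not drawn. All points lie between -0.32 and 0.46, inside the dotted lines at 1.5-fold either way.

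Complex I, the NADH dehydrogenase, is built of a matrix arm that carries electrons and a membrane arm that pumps protons. Its 5 measured core subunits had a median log2 fold change of 0.17 in 2 h against 0 h, with 5 of 5 positive, and 0.089 in 10 h against 0 h, with 3 of 5 positive. NDUFV1, which binds NADH and flavin, had log2 levels of 10.02, 10.20 and 9.48 at 0 h, 10.10, 10.30 and 10.14 at 2 h, and 9.99 and 10.40 at 10 h. One 0 h array lay far below the others and the times overlapped, with log2 fold changes of 0.28 in 2 h against 0 h and 0.29 in 10 h against 0 h. NDUFV2, an iron-sulphur subunit beside it, had 10.71, 10.52 and 10.71 at 0 h, 10.76, 10.72 and 10.81 at 2 h, and 10.25 and 10.74 at 10 h. Its 2 h arrays lay above those at 0 h by a narrow margin, while the arrays at 10 h spread over both. NDUFS1, the largest iron-sulphur subunit, stayed between 9.23 and 9.65 on all arrays. NDUFS3, at the base of the matrix arm, stayed between 10.17 and 10.49.

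NDUFS7 carries the last iron-sulphur cluster before ubiquinone. Its log2 levels were 9.22, 9.36 and 9.30 at 0 h, 9.54, 9.41 and 9.47 at 2 h, and 9.43 and 9.70 at 10 h. Every treated array lay above every untreated one, with log2 fold changes of 0.18 ± 0.17 in 2 h against 0 h and 0.27 ± 0.19 in 10 h against 0 h (limma fit, SE), each with an interval that spans 0. Among the 9 accessory subunits of the matrix arm 3 were positive in 10 h against 0 h, with a median of -0.051, and in 10 h against 2 h 1 was positive, with a median of -0.10. NDUFS4, an accessory subunit added late in assembly and mutated in Leigh syndrome, had 8.95, 8.90 and 9.31 at 0 h, 9.04, 9.07 and 9.09 at 2 h, and 8.47 and 8.99 at 10 h. The 2 h arrays were nearly equal, the lowest level was the low-median 10 h array, and the log2 fold changes were -0.32 ± 0.21 in 10 h against 0 h and -0.33 ± 0.21 in 10 h against 2 h. Over the 19 alternatives the value in 10 h against 0 h ran from -0.58 to -0.042 and was positive in 0. Without 10 h replicate 1 it was -0.056, and as the mean of both NDUFS4 probe sets it was -0.042. The second NDUFS4 probe set had a mean log2 level of 3.19, inside the range of the negative controls. NDUFA9, at the junction of the arms, had 10.71, 10.59 and 10.60 at 0 h, 10.53, 10.80 and 10.77 at 2 h, and 10.53 and 10.46 at 10 h, with both 10 h arrays below all the others. NDUFV3, a small flavoprotein-associated subunit, lay between 8.62 and 8.81 at 2 h, above 8.51 to 8.60 at 0 h, and was at 8.25 and 8.64 at 10 h.

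The 18 accessory subunits of the membrane arm had a median of 0.081 in 10 h against 0 h with 16 of 18 positive, and 7 of them lay wholly above 0 h. NDUFB7, a membrane arm subunit on the intermembrane space side, had the smallest unadjusted p of the members in 10 h against 0 h. Its log2 levels were 9.17, 9.49 and 9.17 at 0 h, 9.70, 9.61 and 9.33 at 2 h, and 9.58 and 9.89 at 10 h. Both 10 h arrays lay above every untreated array, 1 of them narrowly, and the 2 h arrays overlapped with 0 h. The log2 fold change was 0.46 ± 0.20 in 10 h against 0 h, a fold of 1.37 with a 95% interval of 1.02 to 1.85 (limma adjusted p = 1.00, over alternatives 0.276 to 1.00), and 0.27 ± 0.18 in 2 h against 0 h. A second NDUFB7 probe set, with a mean log2 level of 3.89 inside the range of the negative controls, had 0.18. NDUFB1, another small membrane arm subunit, had 11.72, 11.58 and 11.74 at 0 h, 11.84, 11.79 and 11.82 at 2 h, and 11.88 and 12.02 at 10 h. The 3 times stood in order with no overlap, over a span of 0.44 on the log2 scale, with 0.27 ± 0.18 in 10 h against 0 h. NDUFB10 had 11.29, 11.32 and 10.86 at 0 h, 11.21, 11.44 and 11.30 at 2 h, and 11.38 and 11.51 at 10 h, and its difference of 0.29 ± 0.20 in 10 h against 0 h rested largely on 1 low untreated array.

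Complex II, succinate dehydrogenase, is shared with the citrate cycle. SDHA, the flavoprotein that oxidises succinate, had log2 levels of 9.26, 9.01 and 9.18 at 0 h, 9.39, 9.43 and 9.33 at 2 h, and 9.11 and 9.50 at 10 h. The 2 h arrays all lay above the untreated ones, with a log2 fold change of 0.23 ± 0.17 in 2 h against 0 h, and of the 10 h arrays 1 lay within the untreated range and 1 above it. SDHC, a membrane anchor, had 9.91, 9.49 and 10.00 at 0 h, 9.96, 9.86 and 9.77 at 2 h, and 9.71 and 10.09 at 10 h, so that all times overlapped. SDHD, the other membrane anchor, whose promoter stretch is printed above, had 10.71, 10.74 and 10.36 at 0 h, 10.89, 10.49 and 10.72 at 2 h, and 11.00 and 10.75 at 10 h. The 10 h arrays lay above all 0 h arrays, the lower one barely, with a log2 fold change of 0.27 ± 0.21 in 10 h against 0 h.

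Complex III passes electrons from ubiquinol to cytochrome c. UQCRC1, a core subunit on the matrix side, had 10.56, 10.80 and 10.44 at 0 h, 10.60, 10.78 and 10.56 at 2 h, and 10.76 and 10.71 at 10 h. UQCRC2, its partner, had 11.40, 11.09 and 11.45 at 0 h, 11.36, 11.38 and 11.18 at 2 h, and 11.01 and 11.45 at 10 h. Both overlapped at all times. UQCR11, a small subunit whose ETS-bearing promoter stretch is printed above, had 11.31, 11.34 and 11.34 at 0 h, 11.27, 11.30 and 11.30 at 2 h, and 11.38 and 11.43 at 10 h. Its 2 h arrays lay below and its 10 h arrays above those at 0 h, with log2 fold changes of -0.04 ± 0.16 in 2 h against 0 h and 0.07 ± 0.18 in 10 h against 0 h, where the SE is moderated toward the spread of all genes and is wider than the scatter of UQCR11 itself.

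The 6 UQCC assembly factors, several of which act on cytochrome b as complex III is built, had a median log2 fold change of 0.13 in 2 h against 0 h with 5 of 6 positive, and -0.013 in 10 h against 0 h with 3 of 6 positive. UQCC3 had 6.36, 6.52 and 6.30 at 0 h, 6.78, 6.70 and 6.63 at 2 h, and 5.98 and 6.74 at 10 h. Its 2 h arrays all lay above 0 h, with 0.31 ± 0.20 in 2 h against 0 h, and the 10 h arrays stood on either side of the untreated range, with -0.34 ± 0.22 in 10 h against 2 h. UQCC3 had the highest fold change of the members in 2 h against 0 h and the lowest in 10 h against 2 h, and passed the test in neither.

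Complex IV, cytochrome c oxidase, has nuclear subunits that come in ubiquitous and tissue-restricted forms. The 10 ubiquitous subunits had a median log2 fold change of 0.093 in 10 h against 0 h with 9 of 10 positive. COX4I1, the ubiquitous form of the largest nuclear subunit, stayed between 12.19 and 12.43 on all arrays. COX5A stayed between 12.04 and 12.19, with a log2 fold change of -0.01 ± 0.18 in 10 h against 0 h. COX7C stayed between 12.51 and 12.71, and COX6A1 between 12.30 and 12.52. All 4 overlapped between times on these probe sets. A second bright COX4I1 probe set, at a mean log2 level of 11.41, had both 10 h arrays above all the others. It had 0.15 in 10 h against 0 h and 0.12 in 10 h against 2 h, while the dimmer COX4I1 probe sets overlapped. COX5B, which holds a zinc ion, had 10.95, 10.91 and 11.00 at 0 h, 11.14, 11.05 and 11.06 at 2 h, and 10.94 and 11.16 at 10 h, so that only the 2 h arrays stood clear of 0 h. COX8A had 11.46, 11.37 and 11.46 at 0 h, 11.54, 11.51 and 11.55 at 2 h, and 11.51 and 11.58 at 10 h. Every treated COX8A array lay above every untreated one, over a span of 0.21.

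COX6B1, which joins the monomers of the oxidase on the intermembrane space side, had 10.88, 11.00 and 11.16 at 0 h, 11.09, 11.20 and 10.95 at 2 h, and 11.25 and 11.35 at 10 h. The 10 h arrays stood above all the others, with a log2 fold change of 0.29 ± 0.19 in 10 h against 0 h. COX7A2, the ubiquitous form of subunit VIIa, had 11.49, 11.61 and 11.50 at 0 h, 11.47, 11.47 and 11.96 at 2 h, and 12.26 and 11.35 at 10 h. Its 10 h arrays were the highest and the lowest of all 8, and its log2 fold change of 0.28 ± 0.25 in 10 h against 0 h turned to -0.18 without 10 h replicate 1. COX7A2L, which links complexes III and IV into supercomplexes, stayed between 10.61 and 10.97, and COX7B between 11.71 and 12.20.

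Of the 6 restricted isoforms, 3 had a mean within the range of the negative controls and 3 lay above it. COX7A1 (heart and muscle) ran from 4.19 to 4.76 over the 8 arrays, COX7B2 (testis) from 3.73 to 4.16 and COX8C (testis) from 2.03 to 2.36. COX6A2 (heart and muscle) ran from 4.70 to 5.44 and COX6B2 (testis) from 5.38 to 6.15, mostly above the highest negative control value of 4.73. COX4I2, a form known from lung and from low oxygen, had 5.53, 5.41 and 5.38 at 0 h, 5.52, 5.56 and 5.23 at 2 h, and 5.28 and 5.03 at 10 h. Both 10 h arrays lay below the untreated ones, with a log2 fold change of -0.29 ± 0.19 in 10 h against 0 h. The 6 restricted isoforms had a median of -0.16 in 10 h against 0 h with 1 of 6 positive.

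**Figure D4:**
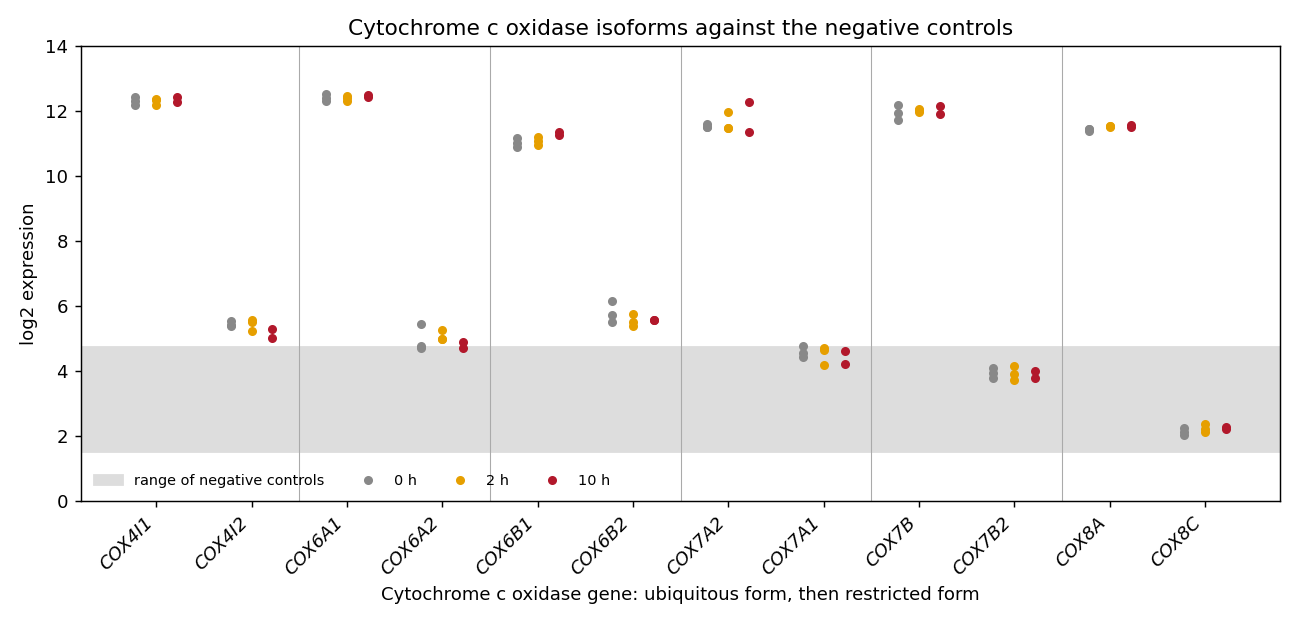
Log2 expression (y axis) of ubiquitous and restricted cytochrome c oxidase genes (x axis, in pairs), with 1 point per array coloured by time and the range of the negative controls from 1.52 to 4.73 in grey. Each ubiquitous form lies far above the grey band at all times, and COX7B2 and COX8C lie within it.

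ATP synthase has a catalytic F1 head on a central stalk, a rotating ring of c subunits in the membrane and a peripheral stalk that holds the head still. The 5 genes of the head and central stalk had a median of -0.016 in 10 h against 0 h with 2 of 5 positive. ATP5F1A (alpha) had 12.93, 12.71 and 12.93 at 0 h, 13.00, 12.87 and 12.78 at 2 h, and 12.75 and 12.92 at 10 h. ATP5F1B (beta, the catalytic subunit) had 11.79, 11.66 and 11.85 at 0 h, 11.69, 11.82 and 11.74 at 2 h, and 11.55 and 11.71 at 10 h. Both overlapped between times, and ATP5F1B had a log2 fold change of -0.14 ± 0.19 in 10 h against 0 h. ATP5F1C (gamma, the rotor shaft) had 12.14, 12.09 and 12.31 at 0 h, 12.15, 12.13 and 12.10 at 2 h, and 11.92 and 12.07 at 10 h. Its 10 h arrays lay below all the others, with -0.18 ± 0.19 in 10 h against 0 h. ATP5F1E (epsilon) had 12.05, 11.88 and 11.99 at 0 h, 12.07, 12.06 and 12.05 at 2 h, and 12.10 and 12.08 at 10 h, so that the subunits of 1 stalk had opposite signs, each within its error (0.11 ± 0.18 for ATP5F1E in 10 h against 0 h).

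The mature c subunit is the same protein from ATP5MC1, ATP5MC2 and ATP5MC3. On the probe sets taken, all 3 genes had positive log2 fold changes in both comparisons with 0 h. Other ATP5MC3 probe sets differed in sign. At a mean level of 11.43, one had 0.11 in 2 h against 0 h and -0.055 in 10 h against 0 h. Another, at a mean level of 7.35, had -0.071 and -0.33. ATP5MC1 had 10.22, 10.28 and 9.94 at 0 h, 10.28, 10.38 and 10.31 at 2 h, and 10.30 and 10.46 at 10 h, with 0.23 ± 0.19 in 10 h against 0 h. ATP5MC2 had 11.27, 11.25 and 11.04 at 0 h, 11.34, 11.33 and 11.47 at 2 h, and 11.22 and 11.45 at 10 h, with 0.19 ± 0.17 in 2 h against 0 h. ATP5MC3 stayed between 11.98 and 12.28 and overlapped at all times. Of the 4 peripheral stalk genes, ATP5PF (coupling factor F6), whose promoter stretch above holds all 3 motifs, had 11.44, 11.32 and 11.26 at 0 h, 11.62, 11.50 and 11.59 at 2 h, and 11.44 and 11.28 at 10 h. Its 2 h arrays stood above both other times, with 0.23 ± 0.17 in 2 h against 0 h and -0.21 in 10 h against 2 h. ATP5PB, the b subunit, ran from 12.15 to 12.32 over all arrays with the 10 h arrays highest. ATP5IF1, which inhibits the enzyme when it runs backwards, had 9.46, 9.57 and 9.44 at 0 h, 9.78, 9.50 and 9.71 at 2 h, and 9.48 and 9.88 at 10 h, with all times overlapping.

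**Figure D5:**
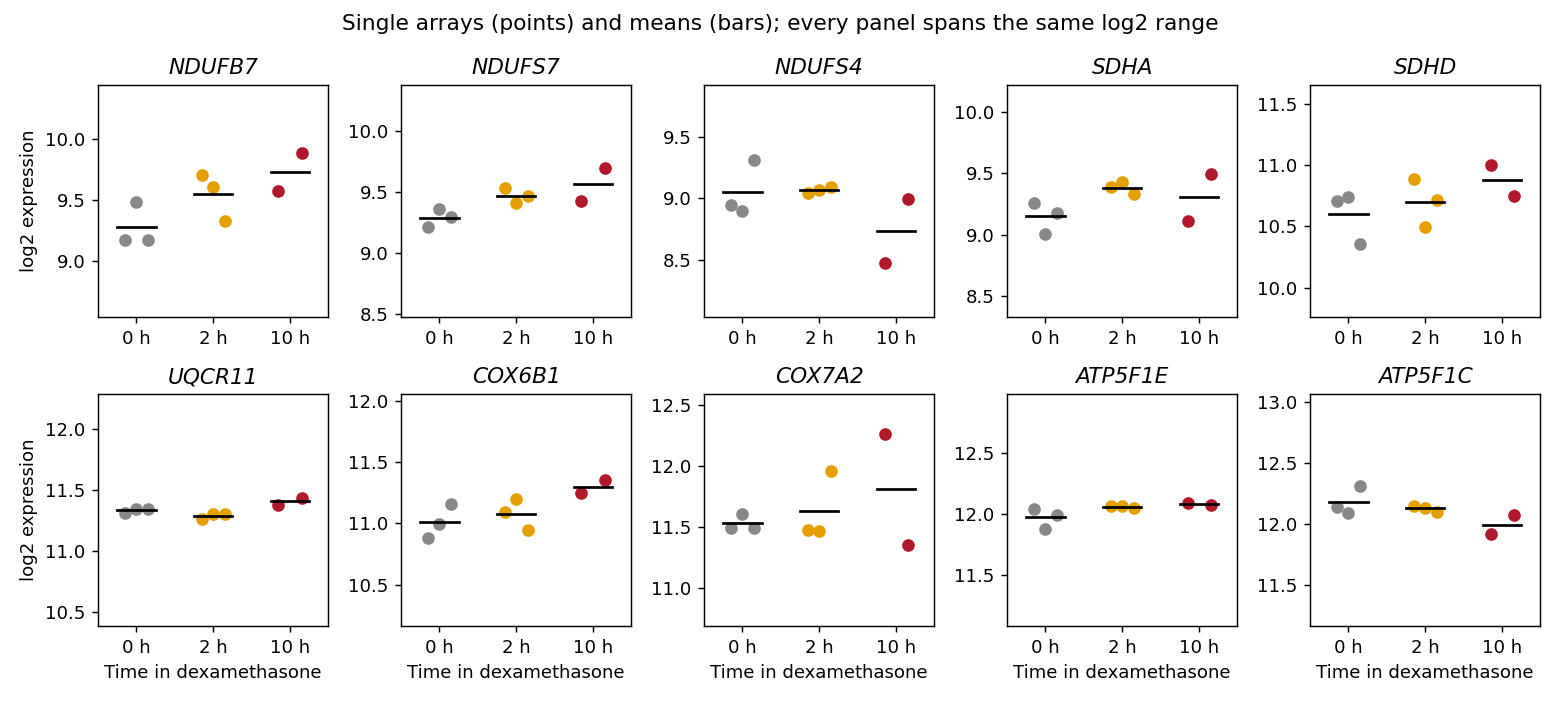
Log2 expression (y axis) in each array (points) and the mean (bars) at 0 h, 2 h and 10 h (x axis) for 10 genes, each panel spanning the same log2 range. NDUFB7 has the highest log2 fold change in 10 h against 0 h, 0.46, the arrays of UQCR11 and ATP5F1E scatter least, and the 10 h arrays of COX7A2 are 12.26 and 11.35.

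Other probe sets of the same genes gave no call either. The 87 members had 170 probe sets, and 48 members had more than 1. Of the 170, 0 passed limma's adjusted test in any comparison, and at an unadjusted p below 0.05 there was 1 in 2 h against 0 h, a second NDUFA5 probe set, 1 in 10 h against 0 h, that of NDUFB7, and 0 in 10 h against 2 h. Log2 fold changes over all 170 lay between -0.51 and 0.46 in 10 h against 0 h. The widest disagreement within a gene in that comparison was 0.69 for COX5B, where a dim probe set at a mean level of 4.66 had -0.51 and the other 3 had 0.10, 0.11 and 0.17.

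Among the lists of genes that surround the chain, 1 gene passed the test, MYC in 10 h against 0 h, where 0.354% of all genes did. Of all genes, 3.44% had an unadjusted limma p below 0.05 in 10 h against 0 h and 0.946% in 2 h against 0 h. The differences between these shares and those of the lists were not tested. Of 48 assembly factors of the complexes, 0 passed limma's adjusted test in 10 h against 0 h and 3 had an unadjusted p below 0.05, all higher, with a median of 0.072 and 26 of 48 positive. In 2 h against 0 h, 45 of 48 were positive with a median of 0.13, where 55.7% of all genes were positive. Again there were 0 calls, with 3 at an unadjusted p below 0.05, all higher. Of genes outside the members with a mean of 9 or more, 71.5% were positive in 2 h against 0 h. No share of like brightness was taken for this list, and the alternatives were not summarised for it. COA5, a cytochrome c oxidase assembly factor, had 0.51 ± 0.20 and PET100, a chaperone of the same complex, 0.56 ± 0.22 in 10 h against 0 h (adjusted p = 1.00 for each). Of 28 electron carriers and transporters measured, 0 passed, 1 had an unadjusted p below 0.05 with a higher level and 1 with a lower one. These were COQ9, needed for ubiquinone synthesis, at 0.44 ± 0.19, and VDAC2, an outer membrane channel, at -0.42 ± 0.19. Of 24 citrate cycle and pyruvate genes measured, 0 passed and 2 had an unadjusted p below 0.05, both lower. They were PDK1, which shuts pyruvate dehydrogenase down, at -0.58 ± 0.22, and IDH3A, a citrate cycle dehydrogenase subunit, at -0.56 ± 0.22.

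Of 20 regulators of mitochondrial biogenesis, 0 rose and 1 fell in 10 h against 0 h, where 0.354% of all genes passed in either direction. Of the 20, 5 were positive with a median of -0.13, where 44.6% of all genes were positive. MYC, a transcription factor that drives growth genes and binds the E-box, had log2 levels of 10.14 and 10.35 at 10 h, against 11.41, 11.18 and 11.16 at 0 h. The groups did not overlap, and MYC fell by 1.01 on the log2 scale (SE 0.20, limma adjusted p = 0.030). PPARGC1B, a coactivator of nuclear receptors and NRF1, had -0.63 ± 0.19 (adjusted p = 0.50). Mitochondrial DNA codes for further subunits of complexes I, III, IV and V, and 7 of its genes had a probe set with a single symbol. Of these, 0 passed limma's adjusted test and 0 had an unadjusted p below 0.05 in any comparison, with a median of 0.068 and 5 of 7 positive in 10 h against 0 h. ND2, of complex I, had 0.41 ± 0.25 and ATP6, of ATP synthase, had 0.31 ± 0.25.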

How the data were processed

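The log2 expression values were deposited as a table of 54675 probe sets by 8 arrays, made with RMA (background correction, quantile normalization and probe set summary) per the submitters' processing notes. The version and annotation used there are not given in the sources used here. Array medians of the deposited values still ran from 4.68 to 5.01, and quantile normalization of the table changed the medians reported above. Whether the 8 arrays had been normalized together was not tested. Probe sets were named from GEO's platform annotation, and 41091 had 1 symbol. From these values limma 3.58.1 in R 4.3.3 fitted the 3 times over all 8 arrays (5 residual degrees of freedom), one probe set per gene, with eBayes and Benjamini-Hochberg adjustment over 19775 genes and an adjusted p threshold of 0.05. Values after ± are SE. The fit was tested on simulated data without shifts of whole arrays and with changes larger than any member's. That test says nothing of changes as small as those of the members. The p-values measure only the spread between these arrays, which may be technical, and the number of arrays limits the precision.

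The members and lists were chosen with earlier results of these data known. Genes named by rule were a panel of main subunits, the oxidase isoform sets, the 5 members with the smallest unadjusted p in each comparison, and, in each neighbouring list, the calls and the 2 smallest p values in 10 h against 0 h. Other members were named after their values were seen, from array separation or scatter. Replicate numbers occur at each time, but the labels do not say that a number marks a shared culture or day. The numbers were therefore not taken as pairs. Deviations of same-numbered arrays from the means of their times correlated between -0.27 and 0.26 over 7 pairs. The deviations of the arrays at 10 h mirror each other by construction, so these correlations cannot decide whether the numbers mark pairs. The alternatives were other probe sets, a filter on dim genes, other scalings, priors and weights, blocks, and arrays left out.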

Additional observations from a re-analysis of the deposited data

How the results depend on the processing

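In all 19 alternatives of each comparison 0 of 87 members passed limma's adjusted test, the replicate block included, and the smallest adjusted p of a member was 0.22 in 2 h against 0 h, 0.276 in 10 h against 0 h and 0.77 in 10 h against 2 h. Of 2154 values of named members under the alternatives, 2059 stayed within 1 SD of the reported value and 95 moved further. Apart from arrays left out 1 at a time, the medians that moved by more than 1 SD were those of complexes. Preferring probe sets without a cross-matching suffix gave 0.077 for complex III and 0.11 for ATP synthase in 2 h against 0 h, and for complex III 0.052 in 10 h against 0 h and -0.011 in 10 h against 2 h. Quantile normalization gave complex III -0.039 in 2 h against 0 h and 0.105 in 10 h against 2 h, where the mean of all probe sets gave 0.030 and the replicate block 0.016. Without the 3 arrays of the lowest medians, complex III had 0.118 in 10 h against 0 h, and in 10 h against 2 h complex I had 0.077 and ATP synthase 0.076. The cause was not tested.

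With 1 array left out at a time, the medians in 10 h against 0 h ran from -0.0090 to 0.130 over all members, from -0.028 to 0.140 for complex I, from -0.036 to 0.293 for complex II, from 0.062 to 0.125 for complex III, from -0.024 to 0.108 for complex IV and from 0.038 to 0.124 for ATP synthase. In 10 h against 2 h they ran from -0.058 to 0.081 over all members, from -0.105 to 0.080 for complex I, from -0.155 to 0.115 for complex II, from 0.022 to 0.114 for complex III and from -0.036 to 0.068 for ATP synthase. In 2 h against 0 h they ran from -0.032 to 0.074 for complex III and from 0.0031 to 0.090 for ATP synthase. Where 1 array at 10 h remained, it was assumed to vary like the other times. The means of 6 members lie within the range of the negative controls.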

Other observations

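UQCC4 and UQCC5, both assembly factors of complex III, had among the widest scatter of the members, and their arrays stood in nearly the same order whatever the time. This was seen after the values were known, and no test was made of it. UQCC4 had log2 levels of 7.99, 7.73 and 7.44 at 0 h, 8.13, 8.12 and 7.42 at 2 h, and 7.61 and 8.26 at 10 h. UQCC5 had 7.74, 7.60 and 7.25 at 0 h, 7.93, 7.86 and 7.29 at 2 h, and 7.44 and 7.98 at 10 h. In both genes replicate 3 at 0 h and replicate 3 at 2 h were the lowest arrays and replicate 2 at 10 h the highest, so the replicates of 1 time differed more than the times did. NDUFA5, an accessory subunit of the complex I matrix arm, scattered as widely in another order, with 8.99, 9.17 and 8.75 at 0 h, 9.40, 8.59 and 9.25 at 2 h, and 9.24 and 8.75 at 10 h.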
